A study of Mus musculus with 7 samples.

Results

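The genes described here are 47 members of the TGF beta, BMP and activin signalling system, chosen by symbol from a list of ligands, latency and antagonist proteins, receptors, Smads and direct targets, with Gdf15 left out of that list. All 47 were found among the 48820 gene identifiers of the count table, and 43 of them had enough reads to be tested in a set of 16764 genes. The RNA was extracted from TA (tibialis anterior, a shin muscle) of male mice aged 7 weeks, on day 3 after injury with BaCl2, a salt that kills muscle fibres. There were 3 samples of Control mice (genotype WT; Pax7-CreERT2) and 4 of Sirt7 scKO mice (genotype Sirt7fl/fl; Pax7-CreERT2), labelled as biological replicates, so both groups carried the Pax7-CreERT2 recombinase and both were injured. The Cre is driven by Pax7, which marks satellite cells, the stem cells of muscle, whereas the RNA was that of every cell type in the tissue. In such bulk RNA, fewer cells of a type and less RNA per cell cannot be told apart.

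Ligands of this family are secreted dimers that assemble type I and type II receptor kinases. TGF beta and activin receptors phosphorylate Smad2 and Smad3, BMP receptors phosphorylate Smad1 and Smad5, and both kinds of Smad enter the nucleus with Smad4. TGF beta is released bound to latent TGF beta binding proteins in the matrix and must be set free before it acts. In skeletal muscle, myostatin and activins limit growth, follistatin neutralises them, TGF beta promotes matrix deposition by fibroblast-like cells and holds back myoblast fusion, and BMP signalling through Id proteins keeps myoblasts from differentiating.

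None of the 43 tested members passed the test of Sirt7 scKO against Control (edgeR quasi-likelihood test, Benjamini-Hochberg adjusted p of 0.05 over all tested genes), where 0.131% of all tested genes were called, 0.101% higher and 0.0298% lower in Sirt7 scKO. The smallest adjusted p among them was 0.182, for Ltbp4. DESeq2 and limma voom called none either. At an unadjusted p under 0.05 there were 8 members, 3 higher and 5 lower in Sirt7 scKO, or 18.6% of the 43 against 13.6% of all tested genes (6.69% higher and 6.94% lower). DESeq2 gave 5 members at that level, with 9.89% of all tested genes, and limma voom 7, with 14.0%. The groups did not overlap in 7 members, 2 higher and 5 lower, or 16.3% against 12.2% of all tested genes (6.51% higher and 5.71% lower). On this background neither count stands as a result about the members. Fold changes were positive in 12 of the 43 members and negative in 31, or 72.1%, where 51.3% of all tested genes were positive and 48.7% negative, and their median log2 fold change was -0.07 beside 0.01 for all tested genes. The fold changes were small: they ran from -0.35 to 0.42 on the log2 scale, and the 95% interval lay within a 2-fold change either way for all 43 members and within 1.5-fold for 34. Over all tested genes these shares were 88.1% and 64.1%.

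**Figure D1:**
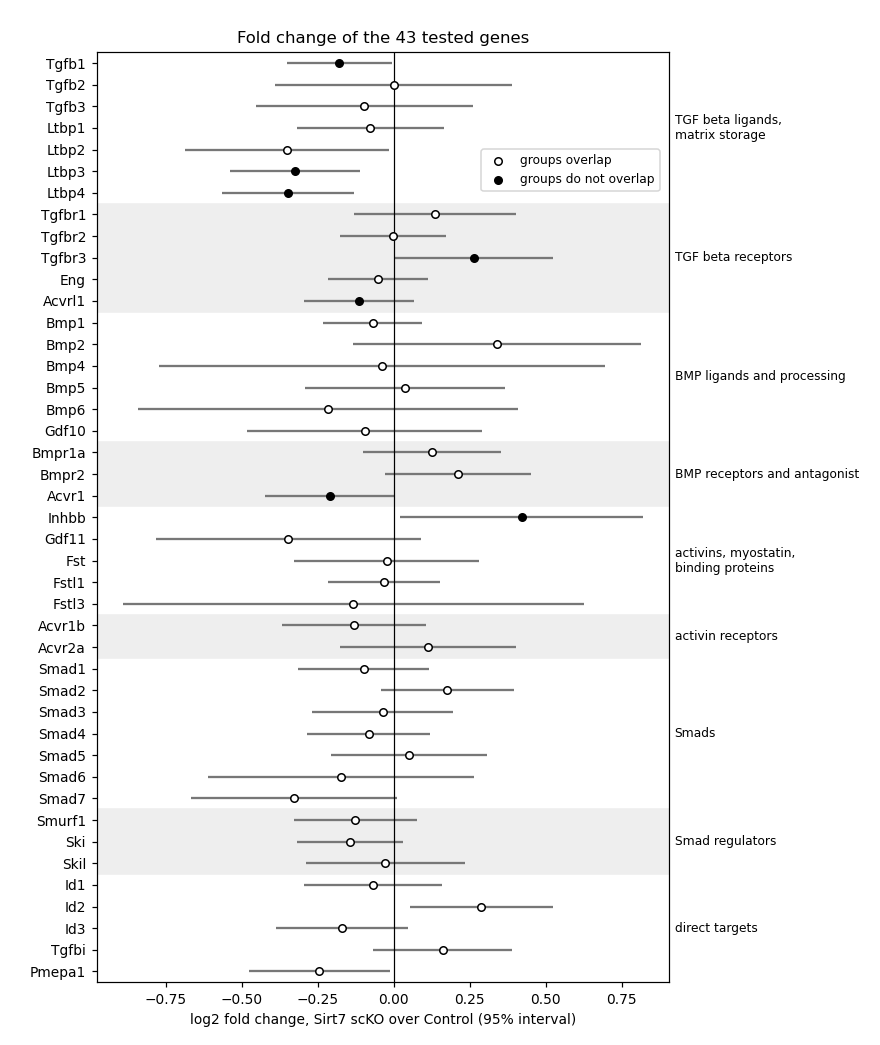
The log2 fold change of Sirt7 scKO over Control (x axis) with its 95% interval for each of the 43 tested members, ordered by role; filled points mark the 7 members whose groups did not overlap. The estimates ran from -0.35 to 0.42. All 7 members of the TGF beta ligand and storage group had an estimate at or below 0, where 48.7% of all tested genes were negative. Of these members, Tgfb2, Tgfb3 and Ltbp1 turned sign on leaving out a library.

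Levels are given as CPM, read counts scaled to library size with TMM factors, as mean ± SD over the 3 Control and 4 Sirt7 scKO libraries. Fold changes are log2 values of Sirt7 scKO over Control with the standard error (SE) of the edgeR fit, and each adjusted p quoted is that fit's. Total counts per library were 5601699 to 5777563 in Control and 5425095 to 7553137 in Sirt7 scKO. Sirt7, the gene targeted, stood at 58.0 ± 12.2 CPM in Control and 43.7 ± 8.39 CPM in Sirt7 scKO, with overlapping groups and a log2 fold change of -0.42 (SE 0.16, edgeR adjusted p = 0.288). The count covers the whole gene in whole muscle, so it does not read the floxed part or the stem cells alone. Muscle fibre markers were detected in every library, as the labelled tissue requires, and the sum of the 12 was 2172 to 5707 CPM in Control and 736 to 3660 CPM in Sirt7 scKO. All 12 had negative fold changes (median log2 -1.09), 2 without overlap of the groups and none past the adjusted threshold.

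The promoters shown here belong to 4 of the 10 members whose groups did not overlap or whose unadjusted p was under 0.05, those for which RefSeq (GRCm38.p6) lists a start with no annotated exon in the 250 bases before it. They are the activin B subunit gene Inhbb (chr1:119422249-119422498, minus strand), Tgfb1 (chr7:25686752-25687001, plus strand), Ltbp4 (chr7:27333664-27333913, minus strand, 1 of its 3 listed starts) and Ltbp3 (chr19:5740650-5740899, plus strand). Each is written 5′ to 3′ on the strand of the gene and ends at the base before the start. Capitals mark the Smad half-site GTCT, or AGAC on the other strand, and the GC-rich Smad site GGCGCC.
Inhbb: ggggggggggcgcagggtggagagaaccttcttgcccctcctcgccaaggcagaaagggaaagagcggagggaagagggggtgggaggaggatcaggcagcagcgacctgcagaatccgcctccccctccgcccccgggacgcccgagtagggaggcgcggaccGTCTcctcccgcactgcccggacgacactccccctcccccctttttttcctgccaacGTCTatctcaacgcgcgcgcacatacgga
Tgfb1: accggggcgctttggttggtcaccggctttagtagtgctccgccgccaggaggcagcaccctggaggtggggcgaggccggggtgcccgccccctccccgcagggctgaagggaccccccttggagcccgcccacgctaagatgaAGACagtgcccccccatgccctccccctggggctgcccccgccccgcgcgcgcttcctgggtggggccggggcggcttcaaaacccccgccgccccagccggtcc
Ltbp4: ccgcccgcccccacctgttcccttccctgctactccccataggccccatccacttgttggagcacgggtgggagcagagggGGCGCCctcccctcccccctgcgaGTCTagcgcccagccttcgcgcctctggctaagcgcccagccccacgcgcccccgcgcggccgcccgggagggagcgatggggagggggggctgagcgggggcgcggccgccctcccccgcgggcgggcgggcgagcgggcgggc
Ltbp3: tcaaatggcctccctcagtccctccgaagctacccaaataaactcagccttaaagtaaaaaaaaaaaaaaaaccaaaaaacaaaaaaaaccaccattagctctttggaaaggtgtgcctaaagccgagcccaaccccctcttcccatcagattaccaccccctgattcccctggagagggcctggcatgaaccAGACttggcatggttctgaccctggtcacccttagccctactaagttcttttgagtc
The half-site occurred 2 times in the Inhbb window and 1 time in each of the others, and GGCGCC occurred 1 time, in Ltbp4. The palindrome GTCTAGAC, which holds both half-sites, was in none of the 4. The half-site is common, being in 82.9% of all 32851 promoter windows of that length. Of the 35 member genes with a listed promoter, 30 held the half-site (85.7%, against 85.0% of 27025 genes), 9 held GGCGCC (25.7% against 10.8%), 19 held GGAGCC, a further GC-rich Smad site, or its other strand GGCTCC (54.3% against 28.6%), and none held GTCTAGAC (0.2% of genes). Both strands were searched. The members' windows were richer in G and C, with a median of 66.8% against 52.4% in all windows, and the part of base composition in these shares was not tested. GGCGCC was in the windows of Id2, Tgfbi, Ski, Smad5, Tgfbr1, Bmpr1a, Bmpr2, Grem1 and Ltbp4. A match in these letters is a description and does not show that a Smad binds there.

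Tgfb1, the ligand made by most immune and stromal cells, was the most abundant ligand (52.4 CPM per kb of exon over the 7 libraries), above Tgfb3 at 17.9 and Tgfb2 at 2.83 CPM per kb. The order of the 3 isoforms was the same in all 7 libraries, without overlap of their ranges. Tgfb1 (ENSMUSG00000002603.15, GRCm38 chromosome 7, 25687002 to 25705077, plus strand) had 277, 296 and 275 CPM in the Control libraries, in replicate order, and 236, 246, 246 and 272 CPM in the Sirt7 scKO libraries. Every Sirt7 scKO library lay below every Control library, with replicate 4 close to the lowest Control value. The means were 283 ± 11.9 and 249.9 ± 15.5 CPM, a log2 fold change of -0.18 (SE 0.08, 95% interval -0.35 to -0.01, adjusted p = 0.347). Monocytes and macrophages are one source of Tgfb1 in injured muscle, and their 10 markers summed to 10440 to 11030 CPM in Control and 10190 to 12410 CPM in Sirt7 scKO. Most of that sum was Lyz2, at 6567 to 6958 CPM in Control and 6797 to 8300 CPM in Sirt7 scKO. Fold changes were positive in 5 of the 10 markers and negative in 5. Only C1qa had an unadjusted p under 0.05 (log2 fold change -0.33, edgeR adjusted p = 0.287). None of the 10 had groups that did not overlap, and the part of these cells in the Tgfb1 level was not tested.

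Tgfb3 was 62.9 ± 2.33 CPM in Control and 58.7 ± 15.1 CPM in Sirt7 scKO, where replicate 1 stood at 40.5 CPM and replicate 2 at 72.9 CPM. The fold change was -0.10 (SE 0.17, adjusted p = 0.839). Tgfb2 was nearly level in the groups, at 16.4 ± 3.04 and 16.4 ± 2.62 CPM, with a 95% interval of -0.39 to 0.39 for the log2 fold change.

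Of the 4 genes named for latent TGF beta binding proteins, Ltbp4 and Ltbp3 had the smallest p values of all members. Ltbp4 (ENSMUSG00000040488.16, chromosome 7, 27305136 to 27337692, minus strand) was at 67.6, 58.9 and 57.6 CPM in Control and at 49.0, 46.7, 53.1 and 43.9 CPM in Sirt7 scKO. Its groups did not overlap. The means of 61.4 ± 5.41 and 48.2 ± 3.91 CPM gave a log2 fold change of -0.35 (SE 0.10, 95% interval -0.57 to -0.13, adjusted p = 0.182). Ltbp3 (ENSMUSG00000024940.10, chromosome 19, 5740904 to 5758532, plus strand) was at 82.0, 83.5 and 70.3 CPM in Control and at 57.8, 68.6, 59.0 and 66.0 CPM in Sirt7 scKO. Here too the groups did not overlap, although Control replicate 3 and Sirt7 scKO replicate 2 were close. The estimate on the log2 scale was -0.32 (SE 0.10, 95% interval -0.54 to -0.11, adjusted p = 0.201).

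Ltbp2 (ENSMUSG00000002020.15, chromosome 12, 84783212 to 84876532, minus strand) had overlapping groups, with 89.3, 111 and 132 CPM in Control and 74.4, 111, 89.7 and 71.9 CPM in Sirt7 scKO. Its log2 fold change of -0.35 (SE 0.16, adjusted p = 0.342) was near that of Ltbp3 and Ltbp4 with a larger error, and it was -0.20 without Control replicate 3. Ltbp1 showed less, at 62.8 ± 9.18 and 59.6 ± 5.08 CPM (log2 fold change -0.08, SE 0.11, adjusted p = 0.812), and its highest value, 73.3 CPM, belonged to Control replicate 1. Per kb of exon, Ltbp2 was the most abundant of the 4 in all 7 libraries (11.9 CPM per kb) and Ltbp1 the least (5.70 CPM per kb), although neighbouring ranges overlapped. Ltbp3 and Ltbp4 did not differ beyond their spread (7.67 and 8.33 CPM per kb, Ltbp4 higher in 4 of 7 libraries). Fibro-adipogenic progenitors, the fibroblast-like cells of muscle, are a source of such matrix proteins. Of their 10 markers, 9 had negative fold changes (median log2 -0.17), where 48.7% of all tested genes were negative. In Sirt7 scKO 2 were lower without overlap, as were 5.71% of all tested genes. These were Dpt (95.3 ± 14.8 against 67.0 ± 10.2 CPM, adjusted p = 0.139) and Cd248 (121 ± 1.72 against 95.6 ± 12.6 CPM, adjusted p = 0.177). Pdgfra, Col1a1 and Dcn were near level (log2 fold change -0.034, -0.035 and -0.052), and Lum was positive at 0.122. Ly6a and Mfap5 had overlapping groups and log2 fold changes of -0.44 and -0.32 (edgeR adjusted p = 0.225 and 0.261). The sum of the 10 was 4408 to 4855 CPM in Control and 3884 to 4893 CPM in Sirt7 scKO. Most of it was Col1a1, at 3115 to 3509 CPM in Control and 2509 to 3836 CPM in Sirt7 scKO. The part of these cells in the levels of Ltbp3 and Ltbp4 was not tested.

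**Figure D2:**
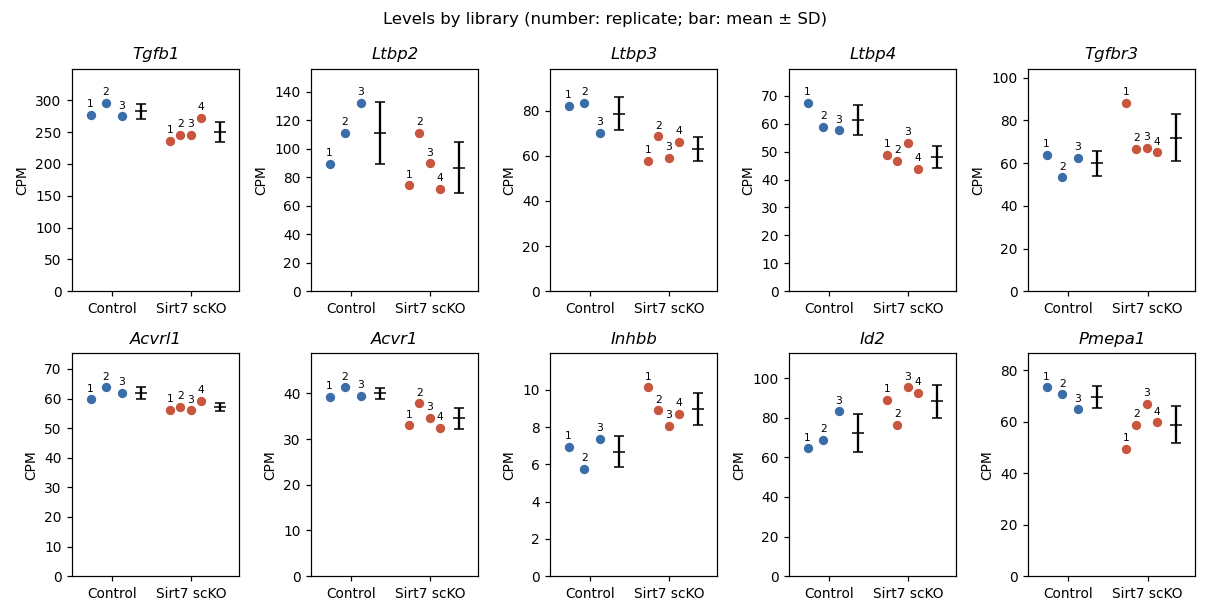
CPM (y axis, from 0) of the 10 members whose groups did not overlap or whose unadjusted p was under 0.05, for each library with its replicate number, with mean ± SD beside the points. The groups did not overlap in Tgfb1, Ltbp3, Ltbp4, Tgfbr3, Acvrl1, Acvr1 and Inhbb, and they overlapped in Ltbp2, Id2 and Pmepa1.

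Among the TGF beta receptors, the signalling pair Tgfbr1 and Tgfbr2 and the endothelial co-receptor Eng stood at similar levels per length, 27.9, 31.8 and 30.8 CPM per kb, with overlapping ranges. Tgfbr2, the type II receptor, was at 250.4, 251 and 279.8 CPM in Control and at 243, 257, 268 and 272 CPM in Sirt7 scKO. The groups overlapped throughout, and the 95% interval of its log2 fold change, -0.18 to 0.17, was among the narrower ones. Tgfbr1, the type I receptor, was even in Control (172 ± 4.05 CPM) and spread in Sirt7 scKO (189 ± 34.1 CPM), from 143 CPM in replicate 1 to 218 CPM in replicate 3 (log2 fold change 0.14, SE 0.12, adjusted p = 0.665). That estimate was 0.25 without Sirt7 scKO replicate 1, 0.08 without replicate 4 and 0.06 without replicate 3. Eng was 127 ± 6.91 and 123 ± 3.26 CPM.

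Tgfbr3 (ENSMUSG00000029287.14, chromosome 5, 107106570 to 107289629, minus strand), the co-receptor betaglycan that presents ligand to the type II receptor, was at 63.9, 53.4 and 62.4 CPM in Control and at 88.4, 66.7, 67.2 and 65.1 CPM in Sirt7 scKO. The groups did not overlap, but 3 of the Sirt7 scKO values lay just above the highest Control value and only replicate 1 stood far above it. The log2 fold change of 0.26 (SE 0.12, adjusted p = 0.363) was 0.15 without Sirt7 scKO replicate 1. Acvrl1 (ENSMUSG00000000530.16, chromosome 15, 101128522 to 101145336, plus strand), the endothelial type I receptor also called ALK1, was at 59.8, 63.8 and 62.0 CPM in Control and at 56.1, 57.3, 56.0 and 59.2 CPM in Sirt7 scKO. The groups lay apart by less than 1 CPM, and the log2 fold change of -0.11 (SE 0.08) had an unadjusted p of 0.198 and an adjusted p of 0.583. The 8 endothelial markers summed to 403 to 489 CPM in Control and 414 to 479.6 CPM in Sirt7 scKO, and none had groups that did not overlap.

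Apart from Bmp5, the BMP ligands among the members were expressed at low levels, from 0.705 CPM per kb for Bmp6 to 2.66 CPM per kb for Gdf10. Bmp1, despite its name, is not a ligand but the metalloproteinase that cleaves procollagens and latent complexes. Bmp1 was at 184, 175 and 188 CPM in Control and at 168, 184, 173 and 170.3 CPM in Sirt7 scKO, with overlapping groups and a log2 fold change of -0.07 (SE 0.08, adjusted p = 0.730). Bmp2, a ligand that drives bone formation, was at 6.43, 6.65 and 7.01 CPM in Control and at 9.0, 10.1, 8.98 and 5.49 CPM in Sirt7 scKO. In that gene 3 Sirt7 scKO libraries lay above all Control libraries and replicate 4 lay below them, and the log2 fold change was 0.34 (SE 0.22, adjusted p = 0.528), or 0.48 without replicate 4. Of the 6 osteoblast markers, Bglap and Sp7 were not tested. Of the 4 osteoblast markers tested, Ibsp and Alpl passed the adjusted threshold, as did 0.131% of all tested genes. Runx2 (log2 fold change 0.05, adjusted p = 0.888) and Dmp1 (-0.04, adjusted p = 0.975) did not and were near level. Ibsp was 0.176 ± 0.174 and 9.08 ± 4.11 CPM (adjusted p = 0.00999) and Alpl 1.34 ± 0.716 and 6.92 ± 1.12 CPM (adjusted p = 0.0191). Both were near the floor in Control and passed the filter through the Sirt7 scKO libraries. The part of osteoblasts in the Bmp2 level was not tested.

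Bmp5 was the most abundant true BMP ligand per length (7.71 CPM per kb) and was level in the groups, at 30.6 ± 3.05 and 31.3 ± 6.52 CPM. Of its exon bases, 46.7% overlap the antisense gene Gm26903 (19.6 ± 2.44 and 17.8 ± 4.76 CPM), and counts of the pair cannot be told apart if strand was not used. Bmp4 ranged from 1.80 to 4.86 CPM in Control alone (log2 fold change -0.04, SE 0.34), Bmp6 was 3.00 ± 0.342 and 2.56 ± 0.531 CPM, and Gdf10, also called BMP3b, was 14.3 ± 1.35 and 13.5 ± 2.86 CPM. For Bmp4 and Bmp6 the 95% intervals reached -0.77 and -0.84, so a level lower by more than 1.5-fold lay within them and one lower by 2-fold did not.

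Acvr1 (ENSMUSG00000026836.15, chromosome 2, 58388644 to 58567157, minus strand), the type I receptor ALK2 that BMPs and activins bind, was at 39.3, 41.3 and 39.4 CPM in Control and at 33.1, 37.8, 34.7 and 32.5 CPM in Sirt7 scKO. Every Sirt7 scKO library lay below the Control range, with a log2 fold change of -0.21 (SE 0.10, 95% interval -0.42 to 0.003, adjusted p = 0.373). The type I BMP receptor Bmpr1a and the type II receptor Bmpr2 had positive fold changes, with 42.6 ± 3.79 against 46.7 ± 3.72 CPM (log2 0.13, SE 0.11) and 66.0 ± 3.84 against 76.7 ± 10.5 CPM (log2 0.21, SE 0.11, adjusted p = 0.426). Both had overlapping groups. Per kb of exon Acvr1 and Bmpr1a were level, at 7.64 and 7.08 CPM per kb, and Bmpr2 was lower, at 4.01 CPM per kb. Grem1, a secreted BMP antagonist, had 2 counts in all, both in Sirt7 scKO replicate 2, and was not tested.

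Of the activin subunit genes, Inhbb had enough reads to be tested and Inhba did not. Inhbb (ENSMUSG00000037035.5, chromosome 1, 119415465 to 119422248, minus strand), which encodes the activin B subunit, was at 6.95, 5.75 and 7.36 CPM in Control and at 10.1, 8.90, 8.08 and 8.70 CPM in Sirt7 scKO. The groups did not overlap. Means of 6.69 ± 0.837 and 8.95 ± 0.858 CPM gave a log2 fold change of 0.42 (SE 0.19, 95% interval 0.02 to 0.82, adjusted p = 0.338), the highest among the members. Inhba, which encodes the activin A subunit, had 2, 3 and 5 counts in Control and 8, 4, 7 and 2 counts in Sirt7 scKO, too few to be tested. Its level of 0.108 CPM per kb was below the 1.88 CPM per kb of Inhbb.

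Myostatin and its receptor Acvr2b were also below the test's filter. Mstn, the muscle growth inhibitor made by fibres, had 3, 9 and 6 counts in Control and 8, 1, 4 and 4 counts in Sirt7 scKO, or 18 and 17 in all. Acvr2b, a type II receptor of activins and myostatin, had 10, 8 and 9 counts in Control and 10, 9, 8 and 9 counts in Sirt7 scKO. Gdf11, the closest relative of myostatin, was more abundant than it, at 2.53 against 0.306 CPM per kb, and was 11.8 ± 1.49 in Control and 9.18 ± 2.25 CPM in Sirt7 scKO (log2 fold change -0.35, SE 0.20, adjusted p = 0.480). Its 2 lowest values were 8.30 and 6.62 CPM in Sirt7 scKO replicates 1 and 4.

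Among the binding proteins, Fst, the antagonist follistatin, was level, with 15.6, 16.2 and 17.0 CPM in Control and 16.7, 15.7, 18.1 and 13.2 CPM in Sirt7 scKO (log2 fold change -0.02, 95% interval -0.33 to 0.28). Per unit of Inhbb, Fst CPM was 2.25, 2.81 and 2.31 in Control and 1.65, 1.76, 2.24 and 1.52 in Sirt7 scKO, a ratio chosen after the values were seen and so not tested. Fstl1, a follistatin-like glycoprotein of stromal cells, was far more abundant than any ligand or antagonist named here (116 CPM per kb). It was at 612, 551 and 567 CPM in Control and at 521.5, 579, 543 and 614 CPM in Sirt7 scKO, fully overlapping, with a 95% interval of -0.22 to 0.15 for the log2 fold change. Fstl3 was 4.05 ± 0.503 and 3.65 ± 1.69 CPM and is uncertain, since 47.3% of its exon bases overlap Prss57 on the other strand (3.00 ± 0.228 and 3.15 ± 1.23 CPM).

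Of the activin receptors, the type I receptor Acvr1b was at 55.6, 53.7 and 52.2 CPM in Control and at 56.0, 48.4, 51.1 and 40.9 CPM in Sirt7 scKO. The groups overlapped, replicate 4 of Sirt7 scKO was lowest, and the log2 fold change was -0.13 (SE 0.11, adjusted p = 0.639), or -0.06 without that library. The type II receptor Acvr2a was 31.0 ± 5.80 and 33.5 ± 3.01 CPM. Per kb of exon the order Acvr1b, Acvr2a, Acvr2b (11.6, 5.71 and 0.372 CPM per kb) held in all 7 libraries with no overlap.

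**Figure D3:**
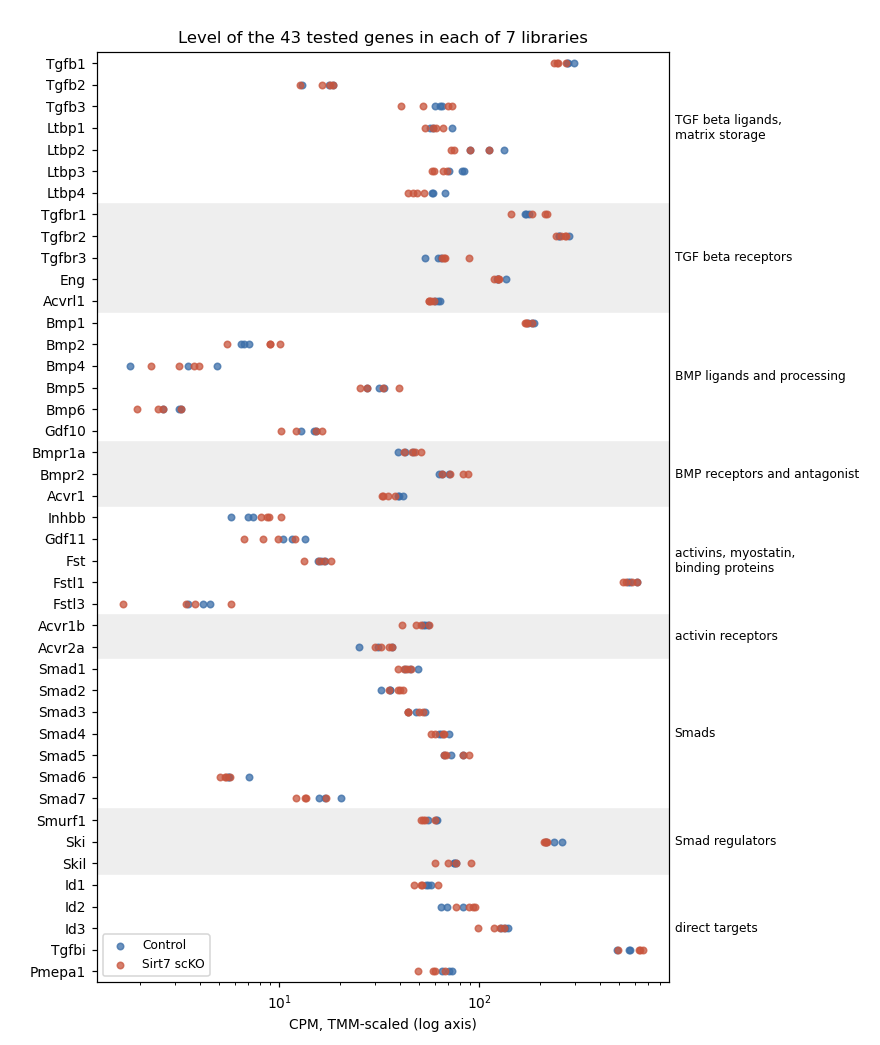
CPM on a log axis of each of the 43 tested members in the 3 Control and 4 Sirt7 scKO libraries, ordered by role. Fstl1 and Tgfbi stood highest and Bmp4, Bmp6 and Fstl3 lowest, and for most members the points of the groups were mixed.

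The Smads, which carry the signal to the nucleus, showed no member past an unadjusted p of 0.05. The shared partner Smad4 was the most abundant per length (17.2 CPM per kb), ahead of the BMP Smad5 (10.2) and the TGF beta and activin Smad3 (8.65), whose ranges overlapped, and ahead of the BMP Smad1 (7.00) and Smad2 (4.24 CPM per kb). Smad4 was at 62.7, 64.1 and 70.8 CPM in Control and at 57.0, 65.9, 66.2 and 59.8 CPM in Sirt7 scKO, with overlapping groups. Smad2 was 34.7 ± 2.03 and 39.1 ± 2.62 CPM (log2 fold change 0.18, SE 0.10, adjusted p = 0.474), while Smad3 was 48.7 ± 4.86 and 47.4 ± 4.16 CPM. Smad1 was 45.5 ± 3.35 and 42.5 ± 2.81 CPM and Smad5 was 73.7 ± 8.19 and 76.5 ± 10.8 CPM.

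The inhibitory Smads are induced by the pathway and feed back on it. Smad7, which blocks TGF beta and BMP receptors, was at 15.8, 16.9 and 20.3 CPM in Control and at 13.4, 17.0, 12.1 and 13.6 CPM in Sirt7 scKO. Only Sirt7 scKO replicate 2 lay within the Control range, and the log2 fold change of -0.33 (SE 0.16, 95% interval -0.67 to 0.01, adjusted p = 0.381) was -0.21 without Control replicate 3. Smad6, which acts mainly on BMP signalling, was 6.06 ± 0.822 and 5.37 ± 0.250 CPM (log2 fold change -0.17, SE 0.20).

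Of the proteins that restrain Smads, the corepressor Ski was the most abundant (40.2 CPM per kb) and stood at 215, 237 and 258 CPM in Control and at 214, 215, 219 and 209 CPM in Sirt7 scKO. Sirt7 scKO was tight around the lowest Control value, and the log2 fold change was -0.14 (SE 0.08, adjusted p = 0.464), or -0.07 without Control replicate 3. Its relative Skil, a target that TGF beta induces, was 75.2 ± 0.918 CPM in Control and 74.0 ± 12.9 CPM in Sirt7 scKO, where it ran from 59.7 to 90.4 CPM. The ubiquitin ligase Smurf1, which marks Smads and receptors for degradation, was 59.1 ± 3.14 and 54.1 ± 3.86 CPM.

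The direct targets differed in sign among themselves. Id2 (ENSMUSG00000020644.8, chromosome 12, 25093799 to 25097140, minus strand), an inhibitor of basic helix-loop-helix factors such as MyoD, was at 64.6, 69.0 and 83.2 CPM in Control and at 89.1, 76.5, 95.4 and 92.5 CPM in Sirt7 scKO. The groups overlapped only through Control replicate 3 and Sirt7 scKO replicate 2, and the estimate on the log2 scale was 0.29 (SE 0.11, 95% interval 0.05 to 0.52, adjusted p = 0.274). Id1 and Id3, of the same family, had negative estimates: Id1 was 55.7 ± 1.56 and 53.1 ± 6.21 CPM (log2 -0.07, SE 0.11) and Id3 was 134 ± 5.89 and 119 ± 15.0 CPM (log2 -0.17, SE 0.10, adjusted p = 0.492, and -0.09 without Sirt7 scKO replicate 3). The CPM ratio of Id2 to Id3 was 0.506, 0.514 and 0.597 in Control and 0.753, 0.602, 0.970 and 0.698 in Sirt7 scKO. This ratio did not overlap between the groups, but it was chosen after the values were seen and was not tested. Per kb of exon the order Id3, Id1, Id2 (70.0, 46.7 and 33.4 CPM per kb) held in every library.

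Pmepa1 (ENSMUSG00000038400.15, chromosome 2, 173224458 to 173276533, minus strand), a TGF beta target whose protein holds back receptor Smads, was at 73.3, 70.6 and 64.8 CPM in Control and at 49.5, 58.7, 67.1 and 59.8 CPM in Sirt7 scKO. Sirt7 scKO replicate 3 lay within the Control range, and the log2 fold change of -0.24 (SE 0.11, adjusted p = 0.342) ran from -0.32 to -0.17 on leaving out each library. Tgfbi, a matrix protein that TGF beta induces, had the highest level per length of all members (153 CPM per kb). It was at 488, 567.5 and 560.4 CPM in Control and at 626, 657, 633.5 and 494 CPM in Sirt7 scKO. In that gene replicate 4 of Sirt7 scKO lay with Control replicate 1, and the log2 fold change was 0.16 (SE 0.11, adjusted p = 0.534), or 0.25 without replicate 4 and 0.09 without Control replicate 1.

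**Figure D4:**
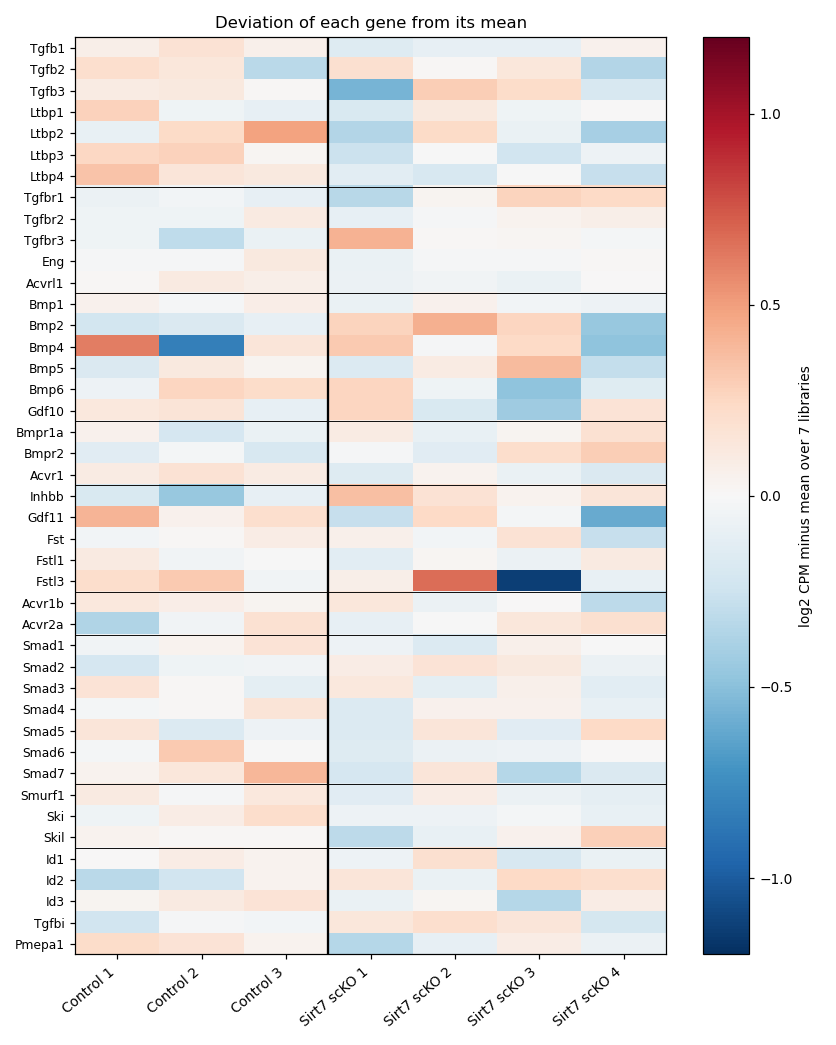
Log2 CPM of each tested member minus its mean over the 7 libraries (colour), with libraries in columns and members in rows by role. The columns of Sirt7 scKO replicates 1 and 4 held the lowest value of 14 and 11 members, and those of Control replicate 3 and Sirt7 scKO replicate 2 held the lowest value of 1 member each.

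Variation among libraries was small. The median coefficient of variation was 8.15% in Control and 11.7% in Sirt7 scKO, against 10.6% and 12.6% for all tested genes. Libraries did not contribute evenly to this spread. Sirt7 scKO replicate 1 was the highest or lowest of the 7 libraries in 19 members (44.2%, against 25.5% of all tested genes), in 14 of them the lowest, Tgfb3, Tgfbr1, Skil and Pmepa1 among them. Sirt7 scKO replicate 4 was an extreme in 17 members (39.5% against 34.8%) and Sirt7 scKO replicate 2 in 7 members (16.3% against 26.4%). Markers of muscle cells also varied among these libraries. The sum of the 8 markers of regenerating fibres was lowest of all 7 libraries in Sirt7 scKO replicate 1 (238.8 CPM, where Control had 331.5 to 895 CPM and the remaining Sirt7 scKO replicates 298 to 386 CPM), and that of the 8 markers of stem cells and myoblasts was lowest there too (514 CPM). All 8 markers of regenerating fibres had negative fold changes (median log2 -0.93), none past the adjusted threshold. The sum of the mature fibre markers was 3660 CPM in Sirt7 scKO replicate 1 and lowest, at 736 CPM, in replicate 2. The part of these cells in the members' levels was not tested.

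**Figure D5:**
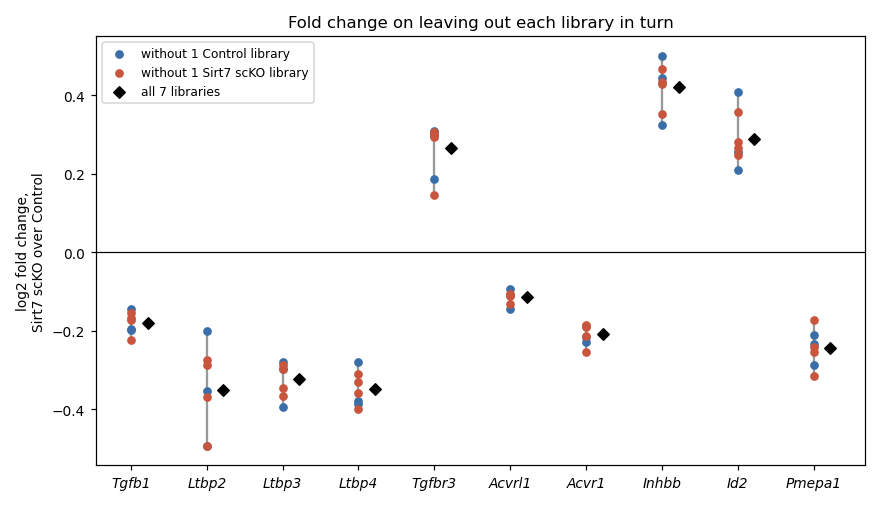
The log2 fold change of Sirt7 scKO over Control (y axis) for the same 10 members with all 7 libraries (diamonds) and without each library in turn (points, coloured by the group of the library left out). Each of the 10 kept its sign in all 7 fits, while Ltbp2 ranged from -0.49 to -0.20 and Tgfbr3 from 0.15 to 0.31.

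Without each library in turn, the number of members at an unadjusted p under 0.05 moved with the library. It was 2 without Control replicate 2, where 8.14% of all tested genes were at that level, and 4 without Sirt7 scKO replicate 1 (12.5%). It was 5 without Control replicate 1 (9.93%), Control replicate 3 (13.1%) or Sirt7 scKO replicate 3 (10.1%). It was 9 without Sirt7 scKO replicate 2 (12.2%) and 11 without Sirt7 scKO replicate 4 (17.2%). Ltbp3 and Ltbp4 were the only members at that level in all 16 alternative settings, and neither passed the adjusted threshold in any of them. The lowest adjusted p of Ltbp3 over these settings was 0.0794 and that of Ltbp4 was 0.116. The groups of Tgfb1, Ltbp3, Ltbp4, Tgfbr3, Acvrl1, Acvr1 and Inhbb stayed apart whichever library was left out. This was nearly fixed in advance, since leaving out a library changes only the scaling of the remaining values. The number of members whose groups did not overlap was 14 without Sirt7 scKO replicate 2 and 12 without Sirt7 scKO replicate 4, where 17.4% and 22.1% of all tested genes did not overlap.

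A further 76 genes of the same pathway, outside the members, were taken from a list of other ligands, receptors, secreted regulators, intracellular regulators and targets. Of these, 52 were tested, none passed the adjusted threshold in edgeR, DESeq2 or limma voom, and 10 had an unadjusted p under 0.05 (19.2% against 13.6%), 4 higher and 6 lower. Fold changes were negative in 33 of 52, with a median of -0.07. The 4 with the smallest p were Junb, an AP-1 gene that TGF beta induces, Smurf2, the partner ligase of Smurf1, the protease gene Furin, which cuts the precursors of TGF beta, and the fibrillin gene Fbn2, to whose microfibrils latent complexes attach. Smurf2 was at 56.5, 53.9 and 56.8 CPM in Control and at 70.2, 70.3, 63.9 and 75.5 CPM in Sirt7 scKO (log2 fold change 0.33, SE 0.09, adjusted p = 0.162). Every Sirt7 scKO library was above every Control library, whereas Smurf1 had a negative estimate of -0.13.

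Junb was 140.3 ± 8.04 and 110.4 ± 8.65 CPM (log2 fold change -0.35, SE 0.09, adjusted p = 0.130), Furin 183 ± 6.79 and 157 ± 4.95 CPM (-0.21, SE 0.07, adjusted p = 0.245) and Fbn2 13.6 ± 1.03 and 18.8 ± 3.62 CPM (0.48, SE 0.17, adjusted p = 0.245). The groups of all 4, which were picked by their p, did not overlap. Of the 52 tested, 7 had groups that did not overlap (13.5%, against 12.2% of all tested genes).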

How the data were processed

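RNA-seq libraries of 3 Control and 4 Sirt7 scKO samples were compared. The deposited values are raw counts per gene and library. Fastp, Bowtie2, featureCounts and the build GRCm38 (mm10) are named, without versions or roles, per the submitters' processing notes. Strand settings, the treatment of reads with several positions and the annotation used were not given in the sources used here. Of 48820 identifiers, 48144 matched GENCODE M21 (GRCm38), which gave symbols, positions and exon lengths.

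Genes were kept with filterByExpr (minimum count 10, minimum total 15). After TMM scaling, edgeR 4.0.16 (R 4.3.3) gave quasi-likelihood p-values, adjusted over 16764 genes. The SE is the size of the log2 fold change divided by the square root of F. CPM per kb is CPM over summed exon length. BLAST 2.17.0 of member transcripts found no copy of at least 95% identity over 150 bases other than genes that overlap them and short matches of Tgfbr2. Exon bases are shared with a gene on the opposite strand in 13 members. Outside Bmp5 and Fstl3, the largest share with any single gene is 9.3%, in Ltbp2, and Tgfb3 shares 4.8% and 7.6% with separate genes. On the same strand, Tgfbr3 shares 4.5% with Gm43422 and Smad5 shares 1.3% with Gm27301.

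Members, lists and tests were chosen with earlier results of these data known. Values in every library were to be given for members whose groups do not overlap or with an unadjusted p under 0.05 and, per role, for the member with the smallest p and that with the highest level per length. A few other members are also given by library. For other pathway genes, the 4 with the smallest p are named. Alternatives were other scalings and filters, DESeq2 1.42.0, limma 3.58.1 voom, robust dispersion, a replicate block and leaving out each library.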

Additional observations from a re-analysis of the deposited data

Results flagged for a closer look

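Tgfbr3, the gene of the co-receptor betaglycan, stood at 88.35 CPM in Sirt7 scKO replicate 1, and the other 3 Sirt7 scKO libraries lay between 65.1 and 67.2 CPM. The gap to the nearest of them was 0.908 of the range of the group, above the limit of Dixon's test for 4 values at the 95% level. It was the 1 gene past that limit among 44 examined, the 43 tested members and Sirt7. A limit at the 95% level lets some genes of such a number pass without a true outlier. The same count over all tested genes was not made, so this 1 gene does not stand out as a result. The limit is that for 4 values and does not apply to the 3 Control values. Without that library the log2 fold change of Tgfbr3 was 0.15 in place of 0.26.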

How the results depend on the processing

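No member passed the adjusted threshold in any of the 16 alternatives. The count at an unadjusted p under 0.05 was 5 with DESeq2 (9.89% of all tested genes), in place of 8 (13.6%), and 2 to 11 on leaving out each library (8.14% to 17.2%). The count of members whose groups did not overlap was 8 to 14 on leaving out each library, where 15.6% to 23.3% of all tested genes did not overlap, in place of 7 (12.2%). The number of all genes past the threshold, 22 in the reported fit, was 35 with total counts and no scaling factor, 585 with no filter beyond 1 count, 154 with DESeq2, 56 with robust dispersion and 0 to 330 on leaving out each library (0 without Control replicate 2). Other pathway genes past it numbered 3 with no filter and 0 to 1 on leaving out each library (Hfe2 without Sirt7 scKO replicate 1, Junb without replicate 4).

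The labels do not say that replicate numbers pair the samples, and the reported fit did not pair them. The correlation of same-numbered libraries' deviations across genes was 0.12, -0.07 and 0.10, and that of differently numbered libraries was -0.157 to 0.156. Control replicates 1, 2 and 3 correlated best with Sirt7 scKO replicates 1, 4 and 2, in that order. These values cannot show whether the numbers pair the samples. With the replicate block, 537 genes, no member and 3 other pathway genes (Hfe2, Junb and Nbl1) passed.

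In 14 members the sign turned in at least 1 alternative, none of them called. With all libraries, Tgfb2 turned to 0.006 (upper-quartile), 0.002 (total counts), 0.011 (no filter), 0.001 (mean of 1 CPM), 0.012 (limma voom) and 0.102 (replicate block). Tgfbr2 turned to 0.001 (upper-quartile) and 0.007 (no filter), Bmp4 to 0.043 (limma voom) and 0.129 (replicate block), Fst to 0.050 and Smad5 to -0.025 (both replicate block). On leaving out each library the range was -0.026 to 0.255 for Acvr2a, -0.340 to 0.308 for Bmp4, -0.101 to 0.122 for Bmp5, -0.090 to 0.049 for Fst, -0.075 to 0.007 for Fstl1, -0.457 to 0.109 for Fstl3, -0.210 to 0.016 for Gdf10, -0.140 to 0.046 for Ltbp1, -0.135 to 0.061 for Skil, -0.099 to 0.035 for Smad3, -0.023 to 0.136 for Smad5, -0.141 to 0.095 for Tgfb2, -0.216 to 0.046 for Tgfb3, -0.036 to 0.056 for Tgfbr2. The cause was not tested. Without a turn of sign, leaving out each library moved the estimate from -0.149 to -0.018 for Id1, -0.238 to -0.059 for Smad6, -0.154 to -0.038 for Smad1, -0.122 to -0.023 for Smad4, -0.355 to -0.107 for Bmp6, -0.097 to -0.043 for Bmp1, 0.066 to 0.190 for Bmpr1a and -0.078 to -0.001 for Eng. Counts of 2 to 63 per gene over all libraries left 4 members without a test.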
